A study of Mus musculus with 288 samples.

Results

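Daily gene expression rhythms were compared between the liver and the lung of daytime-fed Alb-Cre mice. The comparison used all 24 liver and all 24 lung libraries that the labels place in that group, 48 of the 288 libraries of the series, and the genes whose symbols stand in the count tables of both tissues. The question was which genes peaked at opposite times of day in the 2 tissues (antiphase) and which peaked together (aligned). All mice were C57BL/6, aged 3 months, and lived in a cycle of 12 h light and 12 h dark. Alb-Cre is the control genotype of the study; its Cre recombinase is driven by the albumin promoter, a promoter of hepatocytes, and all groups named here carry it. Daytime-fed mice received food only in the light phase for 30 days. They were set beside Alb-Cre mice fed ad libitum, and beside white fat of the same genotype and regimen. They were also set beside daytime-fed BLKO mice, which carry floxed Bmal1 alleles together with the same Cre. Each group held a library A and a library B for every 2 h of the day, 12 times from 0 to 22 h. Hours are as labelled, since no label says when the lights came on. No label names an animal either, so a p-value here measures only how libraries spread, and the number that titles give each group cannot be told apart from the group if it marks a batch.

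Cells keep time with a feedback loop in which BMAL1 (gene Arntl) and its partner activate the Per, Cry and Nr1d genes, whose products then repress the activators or their genes. The clock of the brain follows light, whereas clocks of peripheral organs can be shifted by the time of meals, and the liver is a classic example. Liver genes of lipid metabolism also respond to feeding and fasting directly, through insulin, fatty acid and sterol signals.

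There were 11606 symbols listed in liver and 14343 in lung, with 11090 in both. These shared symbols held 97.1% of the counts of the daytime-fed livers and 85.1% of those of the lungs. Total counts per library ranged from 1423418 to 4360247 in liver and from 1104737 to 2850631 in lung. The tissue labels matched their markers. The 10 hepatocyte genes summed to 72000 to 107000 CPM (counts scaled to the library total) in liver, while the 9 of them listed in lung summed to 18.2 to 119 CPM. The 6 genes of alveolar type 2 cells summed to 36100 to 57300 CPM in lung, and the 2 of them listed in liver to 1.08 to 4.00 CPM. 4 lung libraries stood apart (4A, 4B, 6B and 20A): 6 skeletal muscle genes, picked after the data were seen, summed to 5940 to 8720 CPM in them and to 46.4 to 1560 CPM in the other 20. In these 4 libraries 5 squamous epithelium genes, picked the same way, reached 2170 to 7160 CPM, against 12.3 to 44.7 CPM elsewhere. Results are therefore given with and without these 4 lungs.

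Far fewer genes had a 24 h rhythm in lung than in liver. A gene was called rhythmic where the cosine and sine of time together passed an adjusted p of 0.05 in edgeR's quasi-likelihood test over all genes kept in that tissue. In liver 1869 of 8672 genes passed (21.6%), and in lung 126 of 11012 (1.14%). The lung count was 105 without the 4 lungs, 83 without the libraries of 4 h and 80 without those of 6 h. It was 74 when the daytime-fed lungs were fitted alone. With the letter B alone 415 liver and 29 lung genes passed, and with the letter A alone 845 and 4. In whole tissue, fewer cells of a type and less RNA per cell cannot be told apart. Alb-Cre mice fed ad libitum gave 1685 rhythmic genes in liver (19.4%) and 1367 in lung (12.4%). Median total counts of the lungs were 2071916 under daytime and 2596814 under ad libitum feeding; the part of depth in the lung counts was not tested. Among the 7976 genes kept in both tissues, 49 were rhythmic in both under daytime feeding (0.614%), which was 2.9% of the 1690 liver genes and 52.7% of the 93 lung genes among them. Under ad libitum feeding 278 of these 7976 genes were rhythmic in both (3.49%).

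The peak time of each gene came from a cosine fitted to its log2 CPM, and the phase difference was the liver peak minus the lung peak. Differences of at most 3 h were called aligned and those of at least 9 h antiphase; each of these windows covers 25% of an even spread of differences. Of the 49 genes, 16 were antiphase (32.7%), 17 aligned (34.7%) and 16 lay between. Of the 278 genes rhythmic in both tissues under ad libitum feeding, 183 were aligned (65.8%), 13 antiphase (4.68%) and 82 lay between. Tuba1b at 2.59 h and Timp3 at 2.60 h lay inside the aligned window, and Adh1 at 3.56 h was the first gene outside it. At the other edge Pdxk lay at 8.83 h, outside the antiphase window, and Midn at 9.06 h inside it. Without the 4 lungs with muscle transcripts, 46 genes were rhythmic in both tissues, 13 of them antiphase and 16 aligned; 11 of these 13 and 13 of these 16 were in the same class before. Leaving out the 6 h libraries gave 7 antiphase genes, and leaving out those of 8 h gave 10. The daytime-fed libraries fitted alone gave 32 genes rhythmic in both, 8 of them antiphase. Using only the libraries with the letter B gave 12 genes rhythmic in both (3 antiphase and 4 aligned), and only those with the letter A gave 2 (1 and 0).

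**Figure D1:**
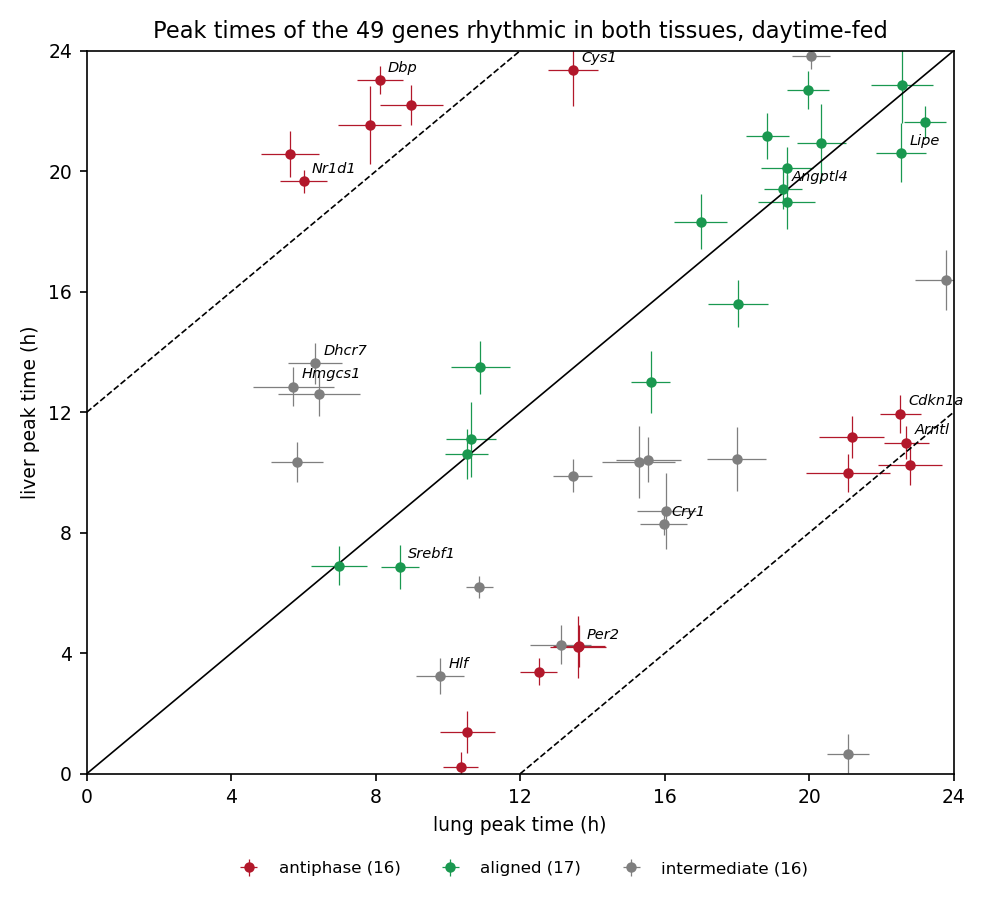
Peak time in liver (vertical, h) against peak time in lung (horizontal, h) for the 49 genes rhythmic in both daytime-fed tissues; points are fitted peaks and bars their standard errors. The solid line marks equal times and the dashed lines a difference of 12 h; the 17 aligned genes lie within 3 h of the solid line, the 16 antiphase genes within 3 h of a dashed line, and axes wrap at 24 h.

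Clock genes made up the core of the antiphase group. Of the 19 genes on the clock list, 15 were measured in both tissues; 10 of them were rhythmic in both, 8 antiphase, 2 between and 0 aligned. Outside the clock list 39 genes were rhythmic in both, 8 antiphase, 14 between and 17 aligned. The classes were read from the same peak times that define them, so these counts carry no test. The amplitude-weighted phase difference over the 13 measured genes of the clock phase set was -9.93 ± 0.45 h under daytime feeding (liver minus lung; jackknife standard error over 24 labels) and -0.03 ± 0.14 h under ad libitum feeding. A value of -9.93 h means that the liver peak came that much earlier than the lung peak. Without the 4 lungs the daytime-fed value was -9.87 h.

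Arntl (mm10 chromosome 7, 113207465 to 113314126, plus strand), which encodes the activator BMAL1, was lowest at 0.348 CPM, had a median of 6.58 CPM and was highest at 16.7 CPM in the daytime-fed livers. In lung it was lowest at 2.98, median 10.2 and highest at 34.3 CPM. All livers from 8 to 14 h held at least 11.8 CPM, and all lungs from 22 to 2 h at least 17.9 CPM. At 14 h the livers stood at 16.2 and 16.7 CPM, their highest pair, and the lungs at 2.98 and 3.85 CPM, their lowest. Its fitted peak was at 10.99 ± 0.54 h in liver and 22.69 ± 0.63 h in lung, 11.70 ± 0.83 h apart (errors are standard errors from 24 libraries per tissue). Peak-to-trough size was 3.29 log2 units in liver (adjusted p = 8.75e-07) and 1.97 in lung (adjusted p = 5.37e-05). Its rhythm differed between the tissues under daytime feeding (adjusted p = 1.46e-12) and was not called different under ad libitum feeding (adjusted p = 0.804). Nfil3, a repressor of genes that DBP and its relatives activate, peaked at 9.99 ± 0.63 h in liver and 21.08 ± 1.16 h in lung, 11.08 ± 1.32 h apart. The lung rhythm of Nfil3 passed narrowly (adjusted p = 0.0416).

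Nr1d1 (chromosome 11, 98767932 to 98775333, minus strand), which encodes REV-ERBα, a repressor of Arntl, followed the opposite hours. Its lowest, median and highest values were 4.56, 32.3 and 118 CPM in liver and 15.5, 159 and 388 CPM in lung. At 6 h the livers held 5.01 and 4.56 CPM, near their floor, and at 8 h the lungs held 341 and 346 CPM, near their top. The lungs of 18 and 20 h disagreed within their pairs: 155 and 15.5 CPM at 18 h, 263 and 42.2 CPM at 20 h, each time with library A higher. Library 20A is one of the 4 lungs that stood apart, and 18A is not. Fitted peaks were at 19.66 ± 0.39 h in liver and 6.01 ± 0.65 h in lung, 10.36 ± 0.76 h apart, and 10.55 h without the 4 lungs. Its peak-to-trough size was 3.89 log2 units in liver and 2.75 in lung. The paralogue Nr1d2 peaked at 22.19 ± 0.66 h in liver and 8.99 ± 0.88 h in lung, 10.80 ± 1.10 h apart. The lung rhythm of Nr1d2 passed at an adjusted p of 0.0372.

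The genes of the PAR-domain activators, which are driven by BMAL1 and carry time to metabolic genes, were also displaced. Dbp ranged from 8.23 to 373 CPM in liver (median 60.5) and from 29.6 to 486 CPM in lung (median 148). Both livers of 0 h were high (373 and 364 CPM), and both lungs of 10 h (416 and 360 CPM). As for Nr1d1, library A exceeded library B in the lungs of 18 h (151 and 35.1 CPM) and 20 h (206 and 33.3 CPM, where A is one of the 4 lungs). In liver A exceeded B most at 22 h (322 and 50.2 CPM). Dbp peaked 9.08 ± 0.80 h apart (23.03 h in liver, 8.11 h in lung), just inside the antiphase window, and 8.92 h apart without the 4 lungs. Tef peaked at 0.21 ± 0.51 h in liver and 10.35 ± 0.48 h in lung, 10.14 ± 0.70 h apart. Hlf was less displaced: its peaks at 3.25 ± 0.59 h and 9.78 ± 0.66 h lay 6.53 ± 0.88 h apart.

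Of the Per and Cry genes, whose products close the feedback loop, Per2, Per3 and Cry1 were rhythmic in both tissues and displaced, and Per1 and Cry2 were not rhythmic in both. Per2 peaked at 4.21 ± 1.04 h in liver and 13.60 ± 0.78 h in lung, and Per3 at 1.38 ± 0.70 h and 10.54 ± 0.76 h. Per2 was lowest at 2.16, median 9.79 and highest at 54.0 CPM in liver, and 16.1, 36.5 and 74.2 CPM in lung. Its highest livers stood at 2 h (54.0 and 44.0 CPM) and all lungs from 10 to 14 h held at least 56.9 CPM. Cry1 was lowest at 4.19, median 23.3 and highest at 50.8 CPM in liver, and 13.6, 26.4 and 52.0 CPM in lung. It peaked at 8.28 ± 0.37 h in liver and 15.97 ± 0.64 h in lung, 7.69 ± 0.74 h apart, which put it outside the antiphase window. Per3 lay 8.83 h apart once the 4 lungs were left out.

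The order of the peaks within each tissue was alike, though the spacing differed for Hlf and Cry1. Counted from Nr1d1, the 10 clock genes ran in liver as Nr1d2, Dbp, Tef, Per3, Hlf, Per2, Cry1, Nfil3 and Arntl; in lung Dbp came before Nr1d2 and Hlf before Tef and Per3, while the last 4 kept their places. Arntl followed Nr1d1 by 15.33 h in liver and 16.68 h in lung. Cry1 followed it by 12.63 h and 9.96 h, and Hlf by 7.59 h and 3.76 h. Tef and Per3 followed it in lung by 4.33 and 4.53 h, closer together than their standard errors, so ranks of close neighbours are loose.

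**Figure D2:**
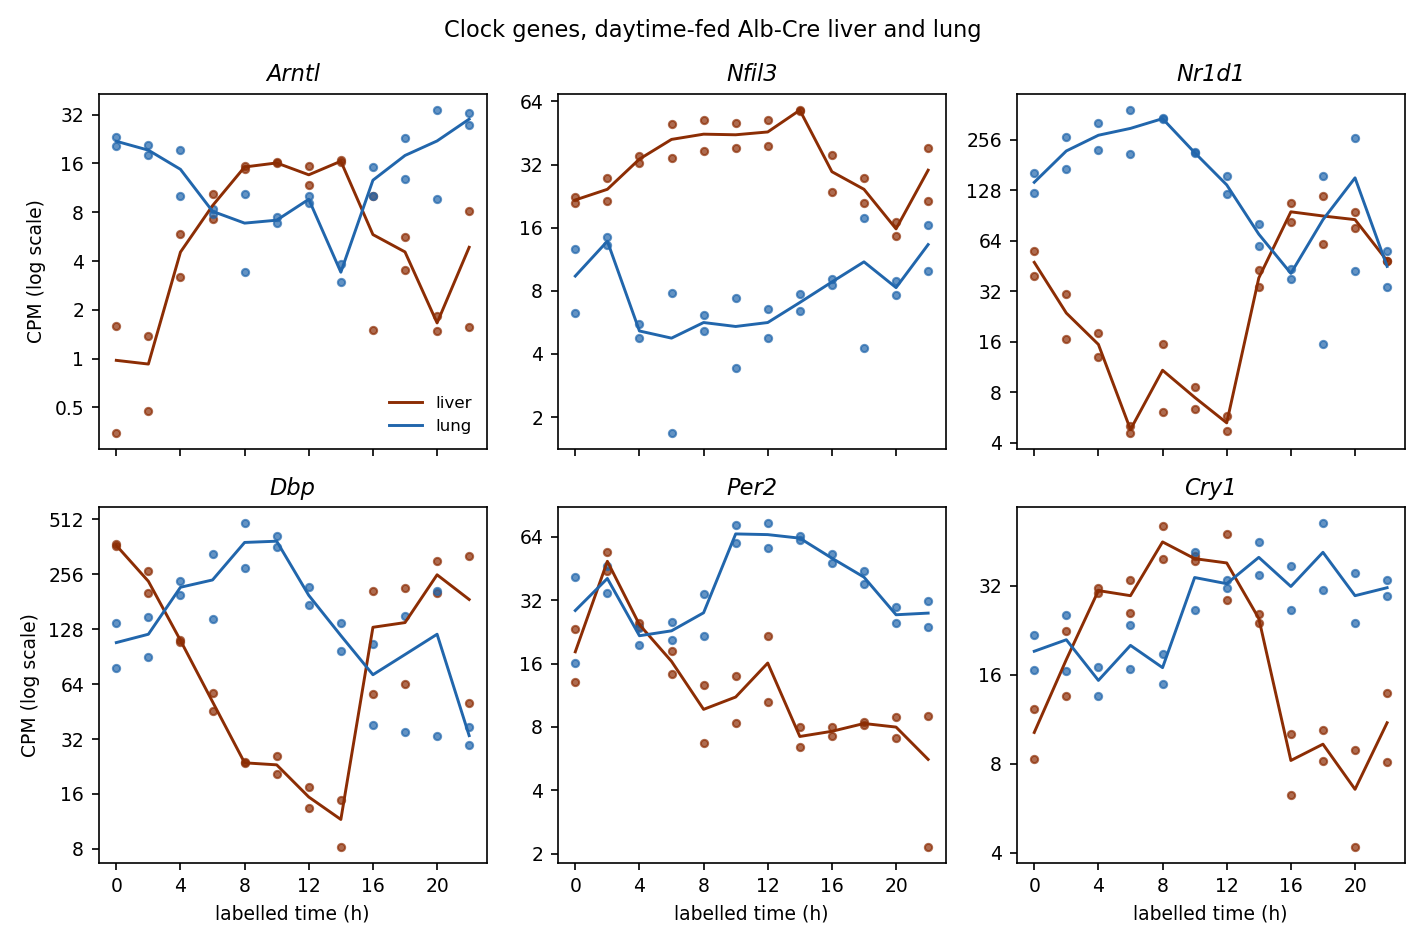
CPM on a log2 axis against labelled time (h) for 6 clock genes in daytime-fed liver (brown) and lung (blue); points are the 2 libraries of each time and lines join their means. Arntl was high in liver from 8 to 14 h and in lung from 22 to 2 h, and Nr1d1 and Dbp ran the opposite way round.

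Per1, Cry2, Ciart and Bhlhe40 were among the measured clock genes that did not pass in both tissues. Ciart, a repressor of BMAL1, was called in liver (adjusted p = 9.97e-05) and not in lung (adjusted p = 0.147), with peaks 9.92 ± 1.40 h apart. Cry2 was called in lung (adjusted p = 0.0372) and not in liver (adjusted p = 0.239). Bhlhe40 passed in liver at 1.81 h (adjusted p = 0.000448) and not in lung (adjusted p = 0.362). Per1, which also answers to glucocorticoids, passed in neither (adjusted p = 0.816 in liver and 0.561 in lung). A joint fit of liver and lung tested each gene's rhythm for a tissue difference: 794 of 7976 genes passed under daytime feeding (9.95%), among them 14 of the 15 clock genes, all but Per1 (adjusted p = 0.571). Under ad libitum feeding 542 genes passed (6.8%). The test answers to peak-to-trough size as well as to peak time, so a gene that passed need not be shifted. Cdkn1a passed it under ad libitum feeding (adjusted p = 0.00246) with peaks 0.97 h apart. Its sizes there were 3.66 log2 units in liver and 1.05 in lung. The daytime-fed count was 630 without the 4 lungs. It was 128 with the letter B alone and 219 with the letter A alone, and the ad libitum count 78 and 90.

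The letters TAGGTCA, to which REV-ERBs bind, were sought on both strands of the RefSeq promoters (GRCm38.p6, 250 bases before to 50 after each start); 41 of the 49 genes had an entry, and Angptl4, Dtx4, Nrn1, Per2, Scd2, Tgm2 and Ywhab were among those that had none. They stood in 144 of 6221 genes (2.31%) in 3 of 14 antiphase genes (Arntl, Nfil3 and Leo1), 1 of 13 aligned genes (Plin2) and 2 of 14 genes between (Dhcr7 and Myl12a). The 3 antiphase genes peaked near 10 to 11 h in liver and 21 to 23 h in lung, so their sites are shown together, with that of the aligned gene Plin2 for contrast. Capitals mark the match, read on the gene's strand, where Nfil3 and Plin2 hold it in reverse complement; the first base of the match lay 31 bases after a listed start in Arntl, and 12, 63 and 218 bases before it in Nfil3, Leo1 and Plin2.
Arntl chr7:113207529-113207558 (+): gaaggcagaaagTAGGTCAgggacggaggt
Nfil3 chr13:52981034-52981063 (-): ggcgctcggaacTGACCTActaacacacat
Leo1 chr9:75441449-75441478 (+): gctggagaaaacTAGGTCAcaaaagtaaag
Plin2 chr4:86670260-86670289 (-): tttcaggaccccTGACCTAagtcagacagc
A match is a description and not evidence of binding. The E-box CACGTG, the site of BMAL1 and its partner, was in 800 of the 6221 genes (12.9%), in 2 of 14 antiphase genes (Midn and Tef), 4 of 13 aligned genes and 7 of 14 genes between. The D-box letters TTANGTAA, bound by DBP and NFIL3, were in 108 genes (1.74%) and, among the 41, in Per3, where they occurred at 2 places 205 and 158 bases before the start.
Per3 chr4:151044852-151044881 (-): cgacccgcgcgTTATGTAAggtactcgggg
Per3 chr4:151044805-151044834 (-): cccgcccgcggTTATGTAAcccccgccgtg

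The 8 antiphase genes outside the clock list were Cdkn1a, Cys1, Leo1, Dtx4, Naa60, Zfp771, Midn and Cgrrf1. Cdkn1a (chromosome 17, 29090976 to 29100727, plus strand), which encodes the cell cycle inhibitor p21, had the largest liver rhythm of all 49 genes. It ran from 0.494 to 88.4 CPM in liver (median 4.17) and from 61.2 to 257 CPM in lung (median 101). Livers were high at 10 h (85.7 and 80.0 CPM), when the lungs were at their lowest pair (75.9 and 61.2 CPM). Its peaks at 11.95 ± 0.63 h in liver and 22.52 ± 0.57 h in lung lay 10.57 ± 0.85 h apart, with peak-to-trough sizes of 4.75 and 1.45 log2 units. Leo1, a subunit of the PAF1 transcription elongation complex, peaked at 10.24 ± 0.64 h in liver and 22.80 ± 0.88 h in lung, 11.44 ± 1.09 h apart. The lung rhythm of Leo1 passed narrowly (adjusted p = 0.0486). Dtx4, an E3 ubiquitin ligase gene, peaked at 11.18 ± 0.69 h in liver and 21.18 ± 0.90 h in lung. Cys1, which encodes the cilium protein cystin, peaked at 23.36 ± 1.18 h and 13.46 ± 0.70 h; it and Leo1 were the 2 antiphase genes whose wrapped difference was positive. Naa60, an N-terminal acetyltransferase gene, peaked 9.12 ± 0.66 h apart and Zfp771 10.30 ± 1.55 h apart. Midn lay 9.06 h and Cgrrf1 9.39 h apart, and 8.75 and 8.86 h without the 4 lungs, and Zfp771 was then not called in lung (adjusted p = 0.0913).

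The 17 aligned genes included several of fasting and lipid metabolism, and, but for Nrn1, peaked either from 17.00 to 23.22 h or from 6.87 to 15.62 h in both tissues. The larger peak-to-trough size was in liver for 12 of the 17, and for 15 of the 16 antiphase genes. From the fatty acid oxidation list 16 genes were measured; 7 were rhythmic in liver, 4 in lung and 3 in both, among them Angptl4, which was aligned, and Cpt1a, which lay between. Angptl4 (chromosome 17, 33773750 to 33781830, minus strand), a PPAR target whose product inhibits lipoprotein lipase, ranged from 30.6 to 267 CPM in liver (median 123) and from 9.41 to 261 CPM in lung (median 100). The livers were highest at 0 h (267 and 194 CPM) and lowest at 6 h (30.6 and 45.0 CPM), and the lungs were highest at 22 h (230 and 261 CPM) and lowest at 4 h (18.3 and 17.6 CPM). Its fitted peaks were at 19.40 ± 0.64 h and 19.28 ± 0.53 h, 0.12 ± 0.83 h apart, with a larger peak-to-trough size in lung (3.20 log2 units) than in liver (2.13). Both lungs of 4 h are among the 4 that stood apart. Without these 4 lungs the Angptl4 peaks lay 0.25 h apart, and its lung rhythm still passed (adjusted p = 5.51e-05). Cpt1a, which admits long-chain fatty acids to mitochondria, peaked at 23.82 ± 0.44 h in liver and 20.05 ± 0.53 h in lung, 3.78 ± 0.69 h apart, and so just missed the aligned window.

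Txnip, a thioredoxin-binding inhibitor of glucose uptake, was lowest at 26.1 CPM, median 57.1 and highest at 182 CPM in liver, and 485, 916 and 1570 CPM in lung. Both tissues had their lowest pair at 6 h, 35.8 and 26.1 CPM in liver and 485 and 644 CPM in lung. Peaks were at 21.17 ± 0.77 h in liver and 18.84 ± 0.59 h in lung. Lung 6B is one of the 4 that stood apart. Without these 4 lungs the Txnip peaks lay 1.9 h apart, and its lung rhythm still passed (adjusted p = 0.00142). Arrdc4, a relative of Txnip, peaked at 22.85 ± 1.24 h and 22.56 ± 0.86 h. The promoter of Txnip (chromosome 3) was 1 of 6 among 6221 genes (0.0964%) to hold a pair of CACGNG half-sites 5 bases apart, the form of element that the glucose-sensing factor ChREBP binds; the pair starts 85 bases before the start, and capitals mark both half-sites and the bases between.
Txnip chr3:96557865-96557894 (+): aactgtgCACGAGGGCTGCACGAGcctcca
Lipe, which encodes hormone-sensitive lipase, peaked at 20.61 ± 0.98 h and 22.54 ± 0.70 h, and Plin2, a lipid droplet coat gene, at 20.93 ± 1.29 h and 20.34 ± 0.68 h. Slc25a42, a mitochondrial coenzyme A carrier gene, peaked at 20.12 ± 0.67 h and 19.39 ± 0.73 h. Since Lipe and Plin2 are also adipocyte genes, the white adipocyte markers matter here. Their sum in lung was 101 to 611 CPM, highest in library 4A, with its highest pair mean at 4 h, a fitted peak at 11.56 h and a fitted peak-to-trough size of 0.49 log2 units. Brown adipocyte markers summed to 22.5 to 250 CPM in lung, with a fitted peak at 7.28 h and a peak-to-trough size of 1.31 log2 units. The part of adipocyte transcripts in the lung rhythms of Lipe and Plin2 was not tested.

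Srebf1, Aacs, Scd2, Lpin2 and Agpat3 were aligned genes with roles in lipid synthesis. Of the 15 measured genes on the fatty acid synthesis list, 11 were rhythmic in liver and 3 in lung; the 2 rhythmic in both, Srebf1 and Scd2, were aligned. Srebf1, which encodes the lipogenic factor SREBP1, had lowest, median and highest values of 160, 331 and 661 CPM in liver and 103, 134 and 182 CPM in lung. Its highest pairs were at 4 h in liver (533 and 661 CPM) and 6 h in lung (182 and 173 CPM), and the fitted peaks at 6.87 ± 0.72 h and 8.67 ± 0.52 h. Aacs, which makes acetoacetyl-CoA in the cytosol for lipid synthesis, had its highest pair at 4 h and its lowest at 18 h in both tissues. The highest were 165 and 204 CPM in liver and 70.7 and 59.4 CPM in lung. Peaks of Aacs were at 6.90 ± 0.65 h and 6.99 ± 0.77 h. Both lungs of 4 h, and library B of 6 h, are among the 4 that stood apart. Without these 4 lungs the Srebf1 peaks lay 2.33 h apart and the Aacs peaks 0.81 h apart. Both lung rhythms still passed (adjusted p = 0.00338 and 0.0243). Scd2, a fatty acid desaturase gene, peaked at 10.60 ± 0.83 h and 10.52 ± 0.60 h although its level differed widely (1.53 to 9.91 CPM in liver, 446 to 826 CPM in lung). Lpin2 and Agpat3, of glycerolipid synthesis, peaked between 17.00 and 19.38 h. Without the 4 lungs neither was called in lung (adjusted p = 0.318 and 0.0873). The others peaked at 21.63 and 23.22 h in liver and lung (Wdr45, an autophagy gene), 13.02 and 15.62 h (Timp3, a metalloproteinase inhibitor), 13.49 and 10.90 h (Tuba1b, a tubulin), 11.10 and 10.64 h (Angptl2, a secreted angiopoietin-like protein) and 15.61 and 18.03 h (Nrn1). Nrn1 was not called in lung without the 4 lungs (adjusted p = 0.117), and then Tuba1b lay between the windows.

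**Figure D3:**
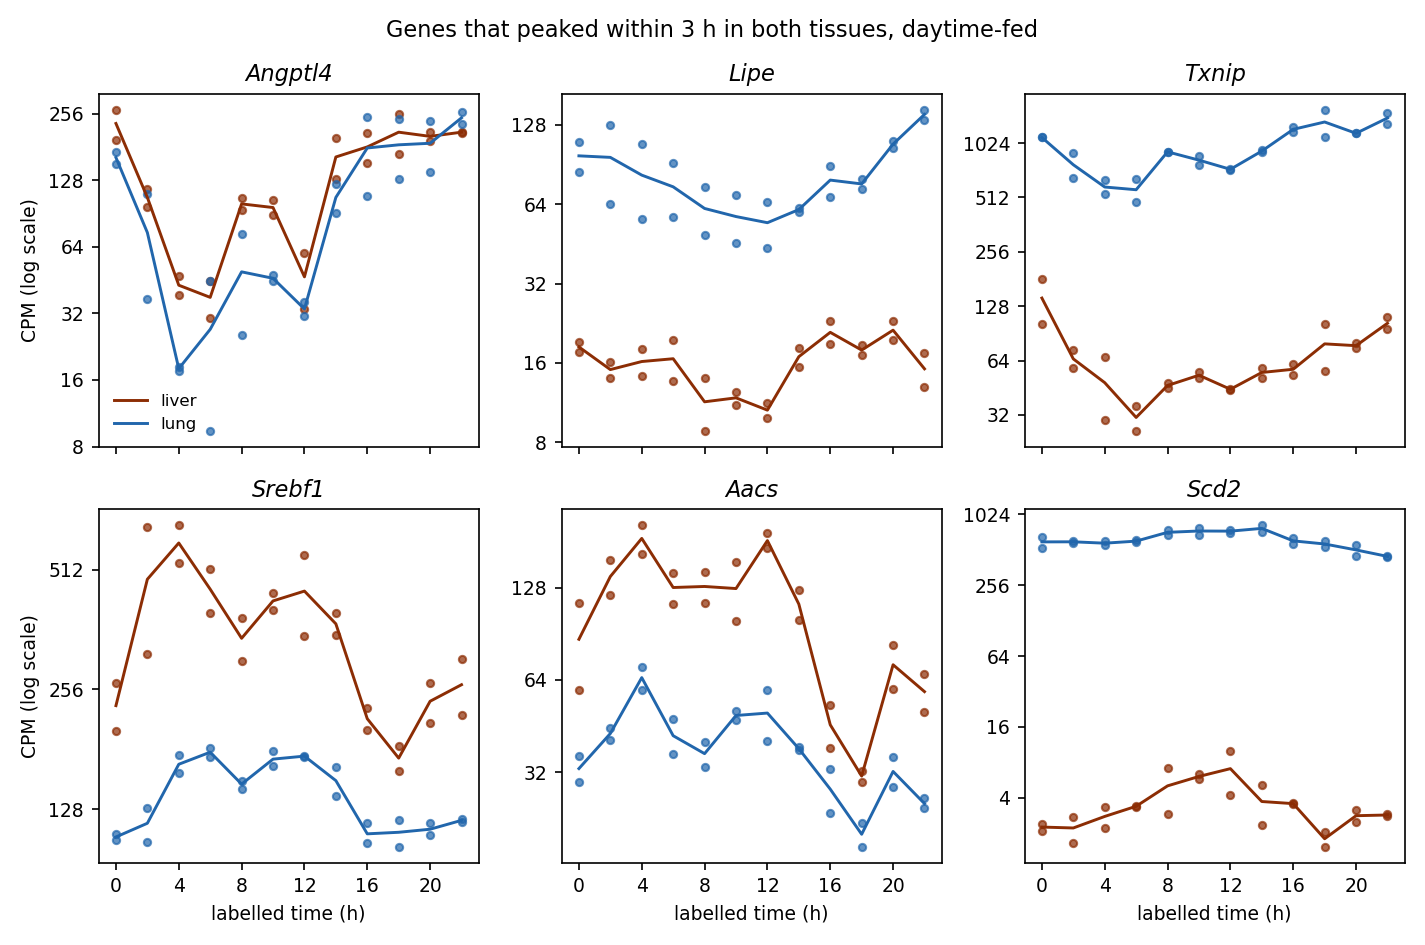
CPM on a log2 axis against labelled time (h) for 6 aligned genes in daytime-fed liver (brown) and lung (blue); points are the 2 libraries of each time and lines join their means. Angptl4 and Txnip had their lowest pairs at 4 or 6 h in both tissues, and Srebf1 and Aacs their highest pairs at 4 or 6 h in both. Lung libraries 4A, 4B and 6B are among the 4 with muscle and squamous transcripts.

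The 4 cholesterol synthesis genes that were rhythmic in both tissues peaked later in liver than in lung, by less than the antiphase window. Of 19 measured genes on the cholesterol list, 15 were rhythmic in liver, with peaks from 7.44 to 13.92 h (median 12.10 h), and 5 in lung. These 4 were Hmgcs1, Mvd, Sc5d and Dhcr7, 0 of them aligned and 0 antiphase. Hmgcs1, which makes HMG-CoA for the sterol pathway, ran from 190 to 1050 CPM in liver (median 679) and from 98.4 to 297 CPM in lung (median 159). Its highest pair was at 10 h in liver (1050 and 784 CPM) and at 6 h in lung (261 and 230 CPM), with fitted peaks at 12.85 ± 0.65 h and 5.72 ± 1.12 h. Mvd, of the mevalonate pathway, peaked at 10.35 ± 0.65 h in liver and 5.82 ± 0.72 h in lung. Dhcr7, the enzyme of the last step to cholesterol, peaked at 13.62 ± 0.67 h and 6.32 ± 0.76 h, and Sc5d at 12.62 ± 0.74 h and 6.44 ± 1.13 h. Without the 4 lungs Hmgcs1 and Sc5d were not called in lung (adjusted p = 0.189 and 0.244), while Mvd and Dhcr7 were.

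**Figure D4:**
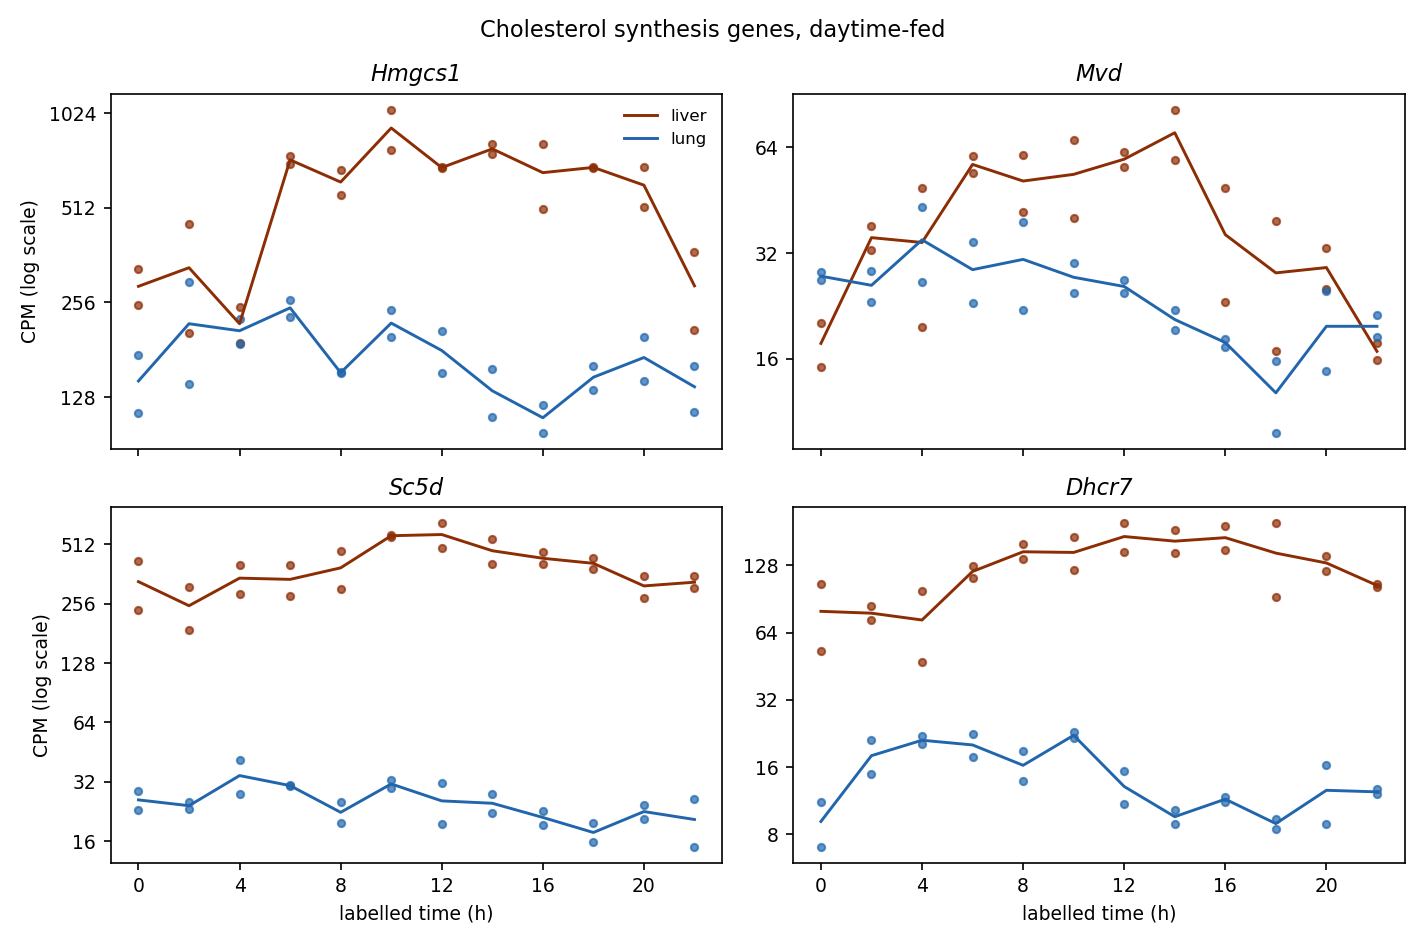
CPM on a log2 axis against labelled time (h) for the 4 cholesterol synthesis genes rhythmic in both daytime-fed tissues, liver in brown and lung in blue; points are the 2 libraries of each time and lines join their means. Liver levels peaked at 10.35 to 13.62 h and lung levels at 5.72 to 6.44 h.

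Besides Hlf, Cry1, Cpt1a and the 4 sterol genes, 9 genes lay between the windows, Tspan4, Pdxk, Adh1, Eci2, Tgm2, Ywhab, Gsta3, Myl12a and Col5a3. Pdxk, the kinase that activates vitamin B6, peaked at 4.29 ± 0.64 h in liver and 13.12 ± 0.84 h in lung. Adh1, an alcohol dehydrogenase gene, peaked at 9.89 ± 0.55 h and 13.45 ± 0.54 h, and Gsta3, a glutathione transferase gene, at 10.42 ± 0.75 h and 15.55 ± 0.90 h. Eci2, of unsaturated fatty acid oxidation, peaked later in liver (0.67 ± 0.66 h) than in lung (21.08 ± 0.58 h). Tgm2, Ywhab, Myl12a and Col5a3 lay 4.93 to 7.56 h apart, each earlier in liver, and none of these 4 was called in lung without the 4 lungs with muscle transcripts (adjusted p = 0.235, 0.121, 0.406 and 0.101). Tspan4, a tetraspanin gene, had the lowest lung p of the 49 genes (adjusted p = 5.19e-08), with peaks at 6.20 ± 0.38 h in liver and 10.87 ± 0.37 h in lung. It is on the clock output list. All 7 measured clock output genes were rhythmic in liver and 1 in lung. Wee1, a kinase that restrains entry to mitosis, peaked at 1.99 h in liver (adjusted p = 1.21e-06), and its lung fit, at 13.27 h, did not pass (adjusted p = 0.0945). Pdk4, which shuts off glucose oxidation, peaked at 8.33 h in liver and 21.03 h in lung, where it did not pass (adjusted p = 0.0748); its rhythm differed between the tissues (adjusted p = 0.000171).

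Most pathway lists held 0 genes rhythmic in both tissues. Since only 0.614% of the 7976 genes were rhythmic in both, a list this short can hold 0 without standing apart. Liver rhythms passed for 7 of 14 heat shock genes, 8 of 17 endoplasmic reticulum genes, 8 of 12 autophagy genes and 7 of 27 proteasome genes, and lung rhythms for 0 in each of these 4 lists, against 1690 liver and 93 lung genes of all 7976. The same held for immediate early genes (3 of 8 in liver), aminoacyl-tRNA synthetases (5 of 16), ribosome biogenesis (3 of 15), mitochondrial chaperones and proteases (2 of 8) and polyamine synthesis (2 of 6). Over all genes kept per tissue, 21.6% passed in liver and 1.14% in lung. Whether any list differed from these shares was not tested. Of 14 glucocorticoid-responsive genes 6 were rhythmic in liver and 1, Cdkn1a, in lung. Of 9 tubulin genes 5 were rhythmic in liver and 1, Tuba1b, in lung. Over all 7976 genes the median peak-to-trough size was 0.30 log2 units in liver and 0.19 in lung; over the 15 clock genes it was 1.86 and 1.12. In all, 1641 genes were called in liver and not in lung, and 657 of these passed the test of the tissue difference; 44 were called in lung and not in liver, and 15 of these passed it. Outside the clock list, the liver genes with the lowest p of that test were Tns2, Asap2, Ppard and Ubxn1. Ppard, which encodes the fatty acid receptor PPARδ, ran from 5.50 to 60.3 CPM in liver, with its highest pair at 10 h (60.3 and 50.4 CPM), and from 31.7 to 62.8 CPM in lung. The lung genes were Spon2, Acot1, Gcat and Hilpda. Acot1, an acyl-CoA thioesterase gene and PPAR target, peaked at 19.94 ± 0.51 h in lung (54.3 to 327 CPM, adjusted p = 7.97e-08) and had no called rhythm in liver (20.5 to 153 CPM, adjusted p = 0.758). Acot1 has close paralogues, so its counts may include reads of these. Hilpda, a lipid droplet protein gene, peaked at 20.10 ± 0.78 h in lung (100 to 339 CPM) and was low in liver (2.17 to 9.74 CPM).

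In the ad libitum libraries most antiphase genes peaked together in liver and lung, and most aligned genes were not rhythmic in both. The peak times behind the classes did not use these libraries, but the rhythm calls shared their filter and estimate of the spread. Of the 16 antiphase genes, 14 were rhythmic in both tissues under ad libitum feeding, 13 of them within 3 h and 0 at 9 h or more, with a median difference of 0.60 h; Cys1 was the exception at 3.72 ± 0.68 h. Arntl peaked at 22.88 h in liver and 23.57 h in lung, and Nr1d1 at 7.51 and 8.30 h. Of the 17 aligned genes, 3 were rhythmic in both tissues under ad libitum feeding, Plin2, Timp3 and Wdr45; Angptl4 was rhythmic in lung (adjusted p = 0.0119) and not called in liver (adjusted p = 0.344), and Txnip in neither (adjusted p = 0.582 and 0.871). Wdr45 went the other way from the clock genes, 5.70 ± 0.93 h apart under ad libitum feeding and 1.59 ± 0.79 h apart under daytime feeding. The interaction of tissue and feeding on the rhythm passed for 1073 of 7976 genes (13.5%), for 15 of the 16 antiphase genes and for 5 of the 17 aligned genes; it shares the daytime-fed libraries with the classes. With the letter B alone it passed for 224 genes and with the letter A alone for 338. Like the test of the tissue difference, it answers to peak-to-trough size as well as to peak time. Peak-to-trough sizes of the 15 clock genes were smaller under daytime than ad libitum feeding for 15 in lung and 13 in liver, with medians of 1.12 against 2.24 log2 units in lung and 1.86 against 2.66 in liver.

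**Figure D5:**
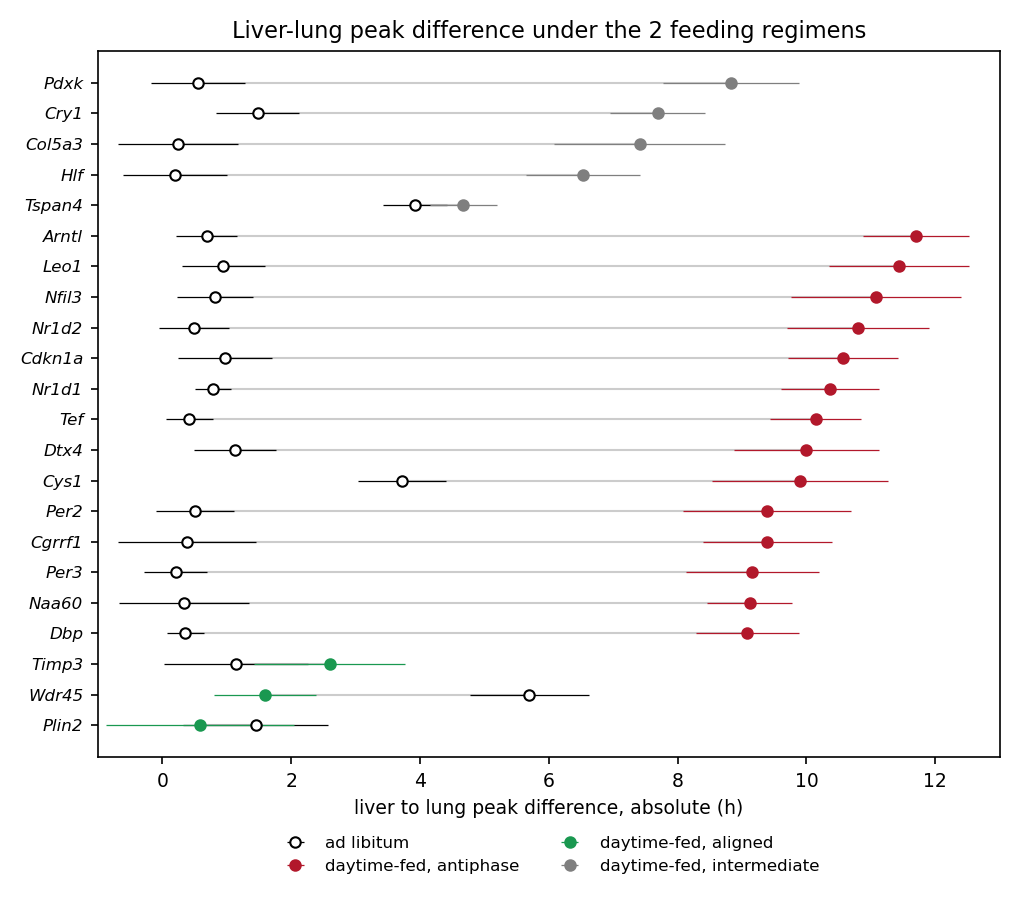
Absolute liver to lung peak difference (h) under ad libitum feeding (open points) and daytime feeding (filled points, coloured by class) for the genes rhythmic in both tissues under both regimens; bars are standard errors. The 14 antiphase genes lay at most 3.72 h apart under ad libitum and at least 9.08 h apart under daytime feeding, while Timp3 and Plin2 lay within 3 h under both.

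White fat of the daytime-fed Alb-Cre mice, with 1925 of 10704 genes rhythmic (18%), gave a reading from a further tissue. Of the 16 antiphase genes, 11 were rhythmic in fat; 9 of these peaked nearer to their liver time and 2, Midn and Naa60, nearer to their lung time. Over the 11 the median distance was 2.12 h from liver and 8.82 h from lung. Arntl peaked at 11.80 h in fat, Nr1d1 at 21.02 h and Per3 at 1.72 h. The fat peak of Leo1 fell at its liver time, 10.24 h. Of the 17 aligned genes, 8 were rhythmic in fat, 5 nearer to lung and 3 nearer to liver; Txnip peaked there at 18.40 h, while Plin2 peaked at 11.44 h, far from both.

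Daytime-fed lungs of BLKO mice, in which 141 of 11562 genes were rhythmic (1.22%), were further lungs that the classes did not use. There 13 of the 16 antiphase genes were rhythmic, all 13 within 3 h of their Alb-Cre lung peak (median distance 1.12 h, largest 2.27 h), and 8 of the 17 aligned genes, all 8 within 3 h (median 0.65 h). In livers labelled BLKO, with 583 of 9183 genes rhythmic (6.35%), 3 of the 15 measured antiphase genes were rhythmic, Dbp, Leo1 and Zfp771. Of these 3, 2 lay within 3 h of their Alb-Cre liver peak, while Dbp peaked at 4.37 h against 23.03 h in Alb-Cre livers. Of the 17 aligned genes 10 were rhythmic there, 9 of them within 3 h of their Alb-Cre liver peak, among them Angptl4 at 20.47 h, Txnip at 19.49 h and Srebf1 at 9.53 h. Reads of Arntl, the targeted gene, were not absent in these livers (median 8.50 CPM, 6.21 to 14.2, against 6.62 CPM in Alb-Cre livers), so its level does not check the deletion.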

How the data were processed

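Tissue, genotype, feeding, time and letter of each bulk RNA-seq library came from its labels. Per the labels' protocols, cDNA was balanced by quantitative PCR of actin, pooled in plates and amplified by in vitro transcription. STAR, HTSeq, cutadapt, bcl2fastq, DESeq2 and the build mm10 are named, per the submitters' processing notes; for versions, annotation and strand the sources used here give nothing. The deposited values used were raw read counts per gene; 336 other per-sample columns (normalized values, and white fat of BLKO mice) were not used.

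Per tissue, 48 Alb-Cre libraries were fitted with edgeR 4.0.16 (limma 3.58.1, R 4.3.3): filterByExpr, TMM scaling, and a mean, cosine and sine of time per regimen with a 24 h period. Adjusted p-values are from its quasi-likelihood test with Benjamini-Hochberg adjustment over all genes kept. Tissue differences and their interaction with feeding came from 1 joint fit of 96 libraries. Peak times and their standard errors came from least squares on log2 CPM (prior count 2). CPM values use TMM-scaled totals, except marker sums and the check of Arntl, which use plain totals. The total counts limit low genes, and standard errors cover the spread between libraries. No 2 libraries of these groups agreed within sampling noise (lowest chi-square per degree of freedom 2.16). The fits were also run on simulated counts drawn independently around exact cosines, and the outcome is not reported here.

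Members, windows and gene lists were chosen with earlier results of these data known. Named genes were all measured clock genes, the 12 antiphase and 12 aligned genes with the largest smaller-of-2 peak-to-trough size, 4 genes called in 1 tissue each way, and up to 4 per list; the other members were named to account for the 49, and a few genes are not reported here. Gene coordinates are from GENCODE M21 on mm10. Python 3.11.15, numpy 2.4.6, pandas 2.3.3 and matplotlib 3.10.9 were used, and DESeq2 1.42.0 for alternatives, which are given in the closing section. Times and replicate letters were left out in turn.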

Additional observations from a re-analysis of the deposited data

Results flagged for a closer look

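Under the interaction of tissue and feeding, the rhythm of 1073 genes differed between liver and lung by a different amount in daytime-fed than in ad libitum Alb-Cre mice. A difference here can be one of peak-to-trough size, of peak time or of both. Among the clock genes the adjusted p of that test was 2.15e-06 for Arntl, 0.00225 for Per2, 1.12e-06 for Per3, 3.54e-11 for Cry1 and for Nr1d1, and 0.000871 for Nr1d2. It was 2.53e-09 for Dbp, 2.44e-11 for Tef, 9.68e-13 for Ciart, 0.0222 for Nfil3, 0.0254 for Cry2 and 0.0308 for Bhlhe40. Among the antiphase genes outside the clock list it was 3.63e-14 for Cdkn1a, 5.66e-06 for Cys1, 7.03e-05 for Naa60, 0.000389 for Zfp771, 0.00283 for Dtx4, 0.00374 for Midn and 0.00951 for Leo1. Among the aligned genes it was 0.00149 for Srebf1, 0.00183 for Wdr45, 0.0229 for Scd2, 0.0346 for Arrdc4 and 0.0459 for Lpin2. The clock genes Hlf (adjusted p = 0.388) and Per1 (0.144) and the antiphase gene Cgrrf1 (0.145) did not pass. Aligned genes not listed in this paragraph did not pass either.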

How the results depend on the processing

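In 25 settings, 0 antiphase genes became aligned and 0 aligned genes became antiphase. Settings that changed only the test, a threshold or the windows kept the same peaks, so they could not swap these classes. A swap also needed a gene to stay rhythmic in both tissues. With the letter B alone 12 genes did, and with the letter A alone 2. The counts of 0 are therefore no test of the classes. Genes did leave their class: of 25 settings, Leo1 and Midn kept it in 11, Nfil3 and Zfp771 in 12, Nrn1 in 10 and Lpin2 in 13. Between the windows Ywhab kept its place in 7 and Sc5d in 8. Nr1d1 and Angptl4 kept their class in 24. Fitting the daytime-fed libraries alone left 74 rhythmic lung genes, 32 rhythmic in both and 8 antiphase. An adjusted p under 0.01 left 1072 in liver, 60 in lung, 29 in both, 9 antiphase and 11 aligned. A peak-to-trough size of at least 1.5-fold left 973, 73 and 29, with 8 aligned, and windows of 2 h and 10 h left 8 antiphase genes. An unweighted mean gave 0.34 h for the ad libitum clock difference. Leaving out a time or a letter gave 415 to 1828 rhythmic genes in liver, 4 to 170 in lung, 2 to 55 in both, 1 to 17 antiphase and 0 to 17 aligned. Tissue differences then numbered 128 to 784 under daytime feeding and 78 to 544 under ad libitum feeding, and interactions 224 to 1091. The clock difference ranged from -10.95 to -9.08 h under daytime feeding, single clock genes left out included, and from -0.18 to 0.10 h under ad libitum feeding. The lowest counts came without a letter, where 12 libraries per group remain. Replicate block: with the shared label of liver and lung as a block, 827 genes differed between the tissues, 669 of them among the 794. The main joint fit had no such block. The labels do not say that a shared label is a shared animal. Residuals of same-labelled daytime-fed livers and lungs correlated by 0.0354 to 0.358 (median 0.101). Of these, 16 of 24 livers and 19 of 24 lungs correlated best with their own label, against 1 expected by chance. DESeq2, its size factors, no count filter, all 96 libraries per tissue, windows of 4 h and 8 h, and a prior count of 0.5 kept every count they gave within 1.5 times, and the joint fit of the 48 daytime-fed libraries gave 687 tissue differences.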
